A study of Homo sapiens with 16 samples.

Results

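The quantity described here is the difference between the responses of 2 genotypes of 1 cell line to hepatocyte growth factor (HGF), that is, the log2 change with HGF in 16HBE-ex14 cells minus the log2 change with HGF in 16HBE-WT cells, taken for each array probe from all 16 of the 16 arrays of the series. The parent line, 16HBE, comes from human bronchial epithelium and was immortalised with SV40 large T antigen. 16HBE-WT cells carried unedited MET, and 16HBE-ex14 cells were clone F, edited with CRISPR/Cas9 near the splice donor of MET exon 14 so that transcripts skip this exon, so the edited genotype is 1 clone and a difference between genotypes cannot be told apart from a difference between clones. Each genotype was measured without HGF and with it (written 16HBE-WT+HGF for the unedited cells and 16HBE-ex14+HGF for the clone), on 4 arrays a group. All cells were kept for 2 h without serum, and the treated cells then received HGF at 20 ng/mL for 24 h. The samples of the 16HBE-WT+HGF group carry another abbreviation in their titles and were assigned by their genotype and agent fields. The arrays lay on 2 slides with 2 array rows each, and every row held 1 array of each group. The methods describe the replicates as cultures of separate weeks, but nothing in the files says which array belongs to which week.

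MET is the receptor tyrosine kinase for HGF and acts mainly in epithelial cells, where the ligand is usually supplied by the stroma. HGF binding activates the RAS-ERK, PI3K-AKT and STAT3 routes and is known for cell scattering, migration and invasive growth. Exon 14 encodes the juxtamembrane segment with the tyrosine that recruits the ubiquitin ligase CBL, and transcripts that skip it occur in lung cancers. The comparison asks whether loss of that segment alters which genes respond to HGF after 24 h, or by how much.

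The scanner software marks each spot as well above background or not. On the 16HBE-ex14+HGF arrays the marked share ran from 55.7% to 60.3%, and on those of the other groups from 49% to 57%, and the part of this gap in the results was not tested. Of 58201 probes, 34600 (59.4%) were well above background on at least 4 arrays and were tested, and they carried 25635 gene names. Signals are log2 intensities relative to the 75th percentile of their array, so a level of 0 is the brightness below which 75% of the spots of that array lie. All 12 bronchial epithelial markers that were looked for were measured, whereas 4 of 10 fibroblast, 7 of 10 leukocyte and 3 of 8 endothelial markers passed the filter.

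No probe was called for the difference at an adjusted p below 0.05 and a difference above 1.5-fold, 0% of those tested in limma's moderated fit, and the smallest adjusted p was 0.127. Without adjustment, 2260 probes (6.53%) had p below 0.05. With the fold limit added, 695 probes (2.01%) had a higher response in 16HBE-ex14 cells and 391 (1.13%) a lower one. Fitting every probe separately, without limma's moderation, also called 0, with 2284 at an unadjusted p below 0.05. The count depended on the processing, since 45 probes were called with another background correction (normexp), 28 with a prior that follows brightness and is robust to outlying probes, 5 with array weights and 21 without the 16HBE-ex14 array on slide 2, array row 1. Scaling and the filter also moved the balance of directions. Of the probes with an unadjusted p and the fold limit, 64% were higher in the main setting, 54.4% with scaling to the array median and 47.5% with scaling to the E1A spike-in probes. The share was 51.8% without the filter on dim probes and 59.2% with all arrays above background. The filter can admit a probe through the arrays of a single group, and the median marked share was highest in 16HBE-ex14+HGF. The balance is therefore a description only. Values named below are therefore those of probes ranked by unadjusted p, none of which passed the adjusted threshold for the difference.

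Each response had a smaller error than their difference. The median standard error of a response was 0.15 and that of the difference 0.21 on the log2 scale, and the median half-width of the 95% interval of the difference was 0.45. The fold limit is 0.585 on the same scale. Taken alone, the HGF response of 16HBE-ex14 cells was called for 820 probes (2.37%), with 453 up and 367 down, and that of 16HBE-WT cells for 0 in limma, with a smallest adjusted p of 0.156 and 2374 probes at an unadjusted p below 0.05. Being called in one genotype and not in the other is not a test of the difference.

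The 1086 probes with an unadjusted p below 0.05 and a difference above 1.5-fold were of several kinds. In 802 of them the response was larger in size in 16HBE-ex14 cells, and in 284 in 16HBE-WT cells. The responses had the same direction in 365 of the 802 and opposite directions in 437. The 16HBE-ex14 response was itself called in 403, of which 248 rose and 155 fell with HGF. In 213 of the 403 the 16HBE-WT response was smaller than 0.25 in size. All 1086 were chosen by a large difference, of which both responses are terms. That choice favours opposite directions and large responses, so these counts are a description only and no sign that HGF acts in opposite ways.

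The 820 probes were called on their 16HBE-ex14 response, and the 16HBE-WT response was no criterion, although all 16 arrays shared the filter, the slide term and the estimate of the spread. The 453 probes that rose in 16HBE-ex14 cells had a median 16HBE-WT response of 0.28, and in array rows 1 and 2 of slide 1 and 1 and 2 of slide 2 the median was 0.49, 0.06, 0.33 and 0.17. For the 367 that fell, the 16HBE-WT median was -0.30, and by row it was -0.46, -0.09, -0.50 and -0.19. Both medians had the direction of the 16HBE-ex14 response in every array row, and both were smallest in row 2 of slide 1. The 16HBE-WT response was smaller in size in 452 of the 453 and in all 367, but the 16HBE-ex14 values chose these probes and are therefore a description only. Over all tested probes the median response was 0.06 in 16HBE-ex14 and 0.03 in 16HBE-WT cells.

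**Figure D1:**
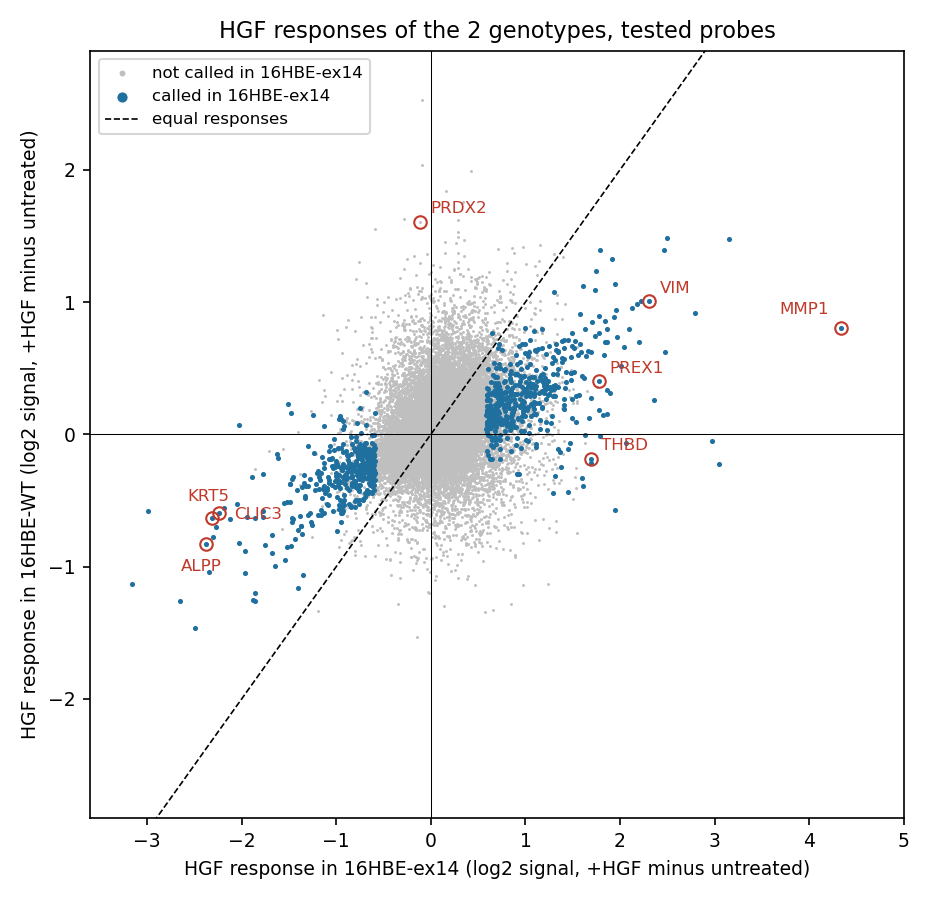
HGF response of each tested probe in 16HBE-ex14 cells (horizontal axis, log2) against that in 16HBE-WT cells (vertical axis, log2), with the 820 probes called in 16HBE-ex14 cells in blue, equal responses on the dashed line and 8 probes ringed and named. Most blue points lie between the dashed line and the horizontal zero line, while MMP1 lies at 4.34 and 0.80 and PRDX2 at -0.11 and 1.61.

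Among secreted proteases, the probe of MMP1, which encodes the interstitial collagenase, had the largest positive difference of all tested probes (chr11:102660697-102660756 on hg19). MMP1 signal was -4.81, -4.09, -4.53 and -4.53 on the 16HBE-WT arrays and -3.78, -4.54, -2.67 and -3.77 with HGF. In 16HBE-ex14 cells it was -4.55, -4.93, -3.94 and -5.13 without and -0.17, -1.20, -0.04 and 0.23 with HGF. The untreated arrays of both genotypes lay in the same range, the 16HBE-WT groups overlapped, and all 4 16HBE-ex14+HGF arrays were above every other array. The difference was 3.54 ± 0.50 (SE, as for all differences below; 95% interval 2.47 to 4.61; adjusted p = 0.127), made of a rise of 4.34 in 16HBE-ex14 cells and a response of 0.80 in 16HBE-WT cells. MMP1 was well above background on 1 of 4 16HBE-WT, 3 of 4 16HBE-WT+HGF, 2 of 4 16HBE-ex14 and all 4 16HBE-ex14+HGF arrays, so the size rests on dim signals, and with normexp correction it was 1.62. MMP3, the stromelysin that can activate other collagenases, had a difference of 1.86 ± 0.54 (adjusted p = 0.426). Its untreated signals lay between -4.72 and -2.62, and with HGF between -3.83 and -2.43 in 16HBE-WT and between -1.92 and -0.47 in 16HBE-ex14 cells.

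Among genes of the basement membrane, LAMA3, which encodes a laminin alpha chain of epithelia (chr18:21534735-21534794), was 5.27, 5.50, 5.83 and 5.80 in 16HBE-WT and 5.70, 5.51, 5.94 and 5.89 in 16HBE-WT+HGF. In 16HBE-ex14 cells it was 5.11, 5.10, 5.70 and 5.38, and with HGF 6.06, 5.95, 6.45 and 6.26. The treated and untreated groups overlapped in 16HBE-WT and not in 16HBE-ex14 cells, and the difference was 0.70 ± 0.12 (95% interval 0.43 to 0.97; adjusted p = 0.175). A second LAMA3 probe gave 0.11 ± 0.30. LAMB3, which encodes a laminin beta chain, had a difference of 0.23 ± 0.15.

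LAMA3 is one of 19 of the 29 highest and lowest genes with a promoter window in the RefSeq table at hand (GRCh38.p14, 250 bases before to 50 after the start), and its window is shown because it was the only one of 26 with the 7-base AP-1 motif. AP-1 is a factor of FOS and JUN proteins at the end of the ERK route. The motif was searched on both strands as TGACTCA, which reads TGAGTCA on the other strand, and both are in capitals.

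LAMA3, chr18:23872770-23873069, plus strand: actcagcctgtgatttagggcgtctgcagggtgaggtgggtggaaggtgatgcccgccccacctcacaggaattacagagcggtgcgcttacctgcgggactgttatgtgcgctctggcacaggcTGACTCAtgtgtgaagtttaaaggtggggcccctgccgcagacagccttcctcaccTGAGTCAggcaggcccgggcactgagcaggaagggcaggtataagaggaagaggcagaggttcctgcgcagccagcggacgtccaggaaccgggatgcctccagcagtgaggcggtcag

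The copies begin 125 and 69 bases before the annotated start. Whether this start belongs to the LAMA3 transcript that the probe measures was not examined. Of 35116 windows of the same length in the table, 1738 (4.95%) hold the motif, so a match is a description of the letters and not of binding. The other 25 windows of named genes do not hold these letters.

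Several genes of signalling and the cell surface had a response in 16HBE-ex14 cells and a small one in 16HBE-WT cells. PREX1, an exchange factor that activates RAC in cell migration (chr20:47241619-47241677), was 0.51, 0.71, 0.64 and 0.69 in 16HBE-WT and 0.83, 0.89, 1.27 and 1.17 in 16HBE-WT+HGF. It was 0.02, -0.04, 0.83 and 0.17 in 16HBE-ex14 and 1.95, 1.62, 2.45 and 2.08 in 16HBE-ex14+HGF. PREX1 arrays with HGF lay above those without in both genotypes, and the difference was 1.38 ± 0.21 (95% interval 0.93 to 1.83; adjusted p = 0.153).

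THBD encodes thrombomodulin, the surface receptor for thrombin. THBD was 0.86, 0.91, 1.97 and 0.93 in 16HBE-WT, 0.46, 0.82, 0.99 and 1.65 in 16HBE-WT+HGF, 0.99, 1.05, 1.27 and 1.35 in 16HBE-ex14 and 2.57, 2.09, 3.53 and 3.22 in 16HBE-ex14+HGF. The 4 treated 16HBE-ex14 arrays stood above all others, and 1 16HBE-WT array stood apart from the other 3. Its difference was 1.87 ± 0.32 (95% interval 1.18 to 2.57; adjusted p = 0.160), with a 16HBE-WT response of -0.18.

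SPNS2, the exporter of sphingosine-1-phosphate, was bright in all groups, at 3.75 to 3.99 in 16HBE-WT, 3.89 to 4.11 in 16HBE-WT+HGF, 4.69 to 5.29 in 16HBE-ex14 and 5.97 to 6.14 in 16HBE-ex14+HGF. The SPNS2 difference was 0.92 ± 0.16 (adjusted p = 0.160). DCBLD2, a transmembrane protein with a discoidin domain, differed by 0.90 ± 0.17, and its other probes gave 0.78 ± 0.17 and 0.66 ± 0.19. HID1, a protein of secretory granule formation, differed by 0.79 ± 0.14 and DPYSL2, a regulator of microtubules in cell processes, by 0.72 ± 0.11. For SH3TC2, an adaptor of endosomal recycling, the difference was 1.19 ± 0.22 on 1 probe and 0.39 ± 0.37 on the other.

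The remaining 5 of the 14 highest rested on dim probes. LINC01635, a long noncoding RNA, had the smallest p of all probes and a difference of 2.52 ± 0.35, yet it was well above background on 1 of 4 16HBE-WT, 0 of 4 16HBE-WT+HGF, 0 of 4 16HBE-ex14 and 3 of 4 16HBE-ex14+HGF arrays. With normexp correction the LINC01635 difference was 0.25, while its second probe gave 0.76 ± 0.17. The MYC probe of this group, from the proto-oncogene, was not well above background on any 16HBE-ex14 array. The bound on its rise with HGF there was 1.66-fold, and its difference was 1.55 ± 0.29. Such a bound sets the bright group's mean against, on each dim array, the higher of the probe's own signal and the lowest signal well above background. It holds for the probe under the main background subtraction and is no limit on the change of the gene. The brighter MYC probe had a difference of -0.04 ± 0.18 and a response of 0.11 in 16HBE-ex14 cells. The others were the noncoding lnc-ZNF674-3 (0.83 ± 0.14), MAMDC2 (0.67 ± 0.12) and AKNA (1.30 ± 0.25), a centrosomal protein with a response of -0.83 in 16HBE-WT and 0.47 in 16HBE-ex14 cells.

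**Figure D2:**
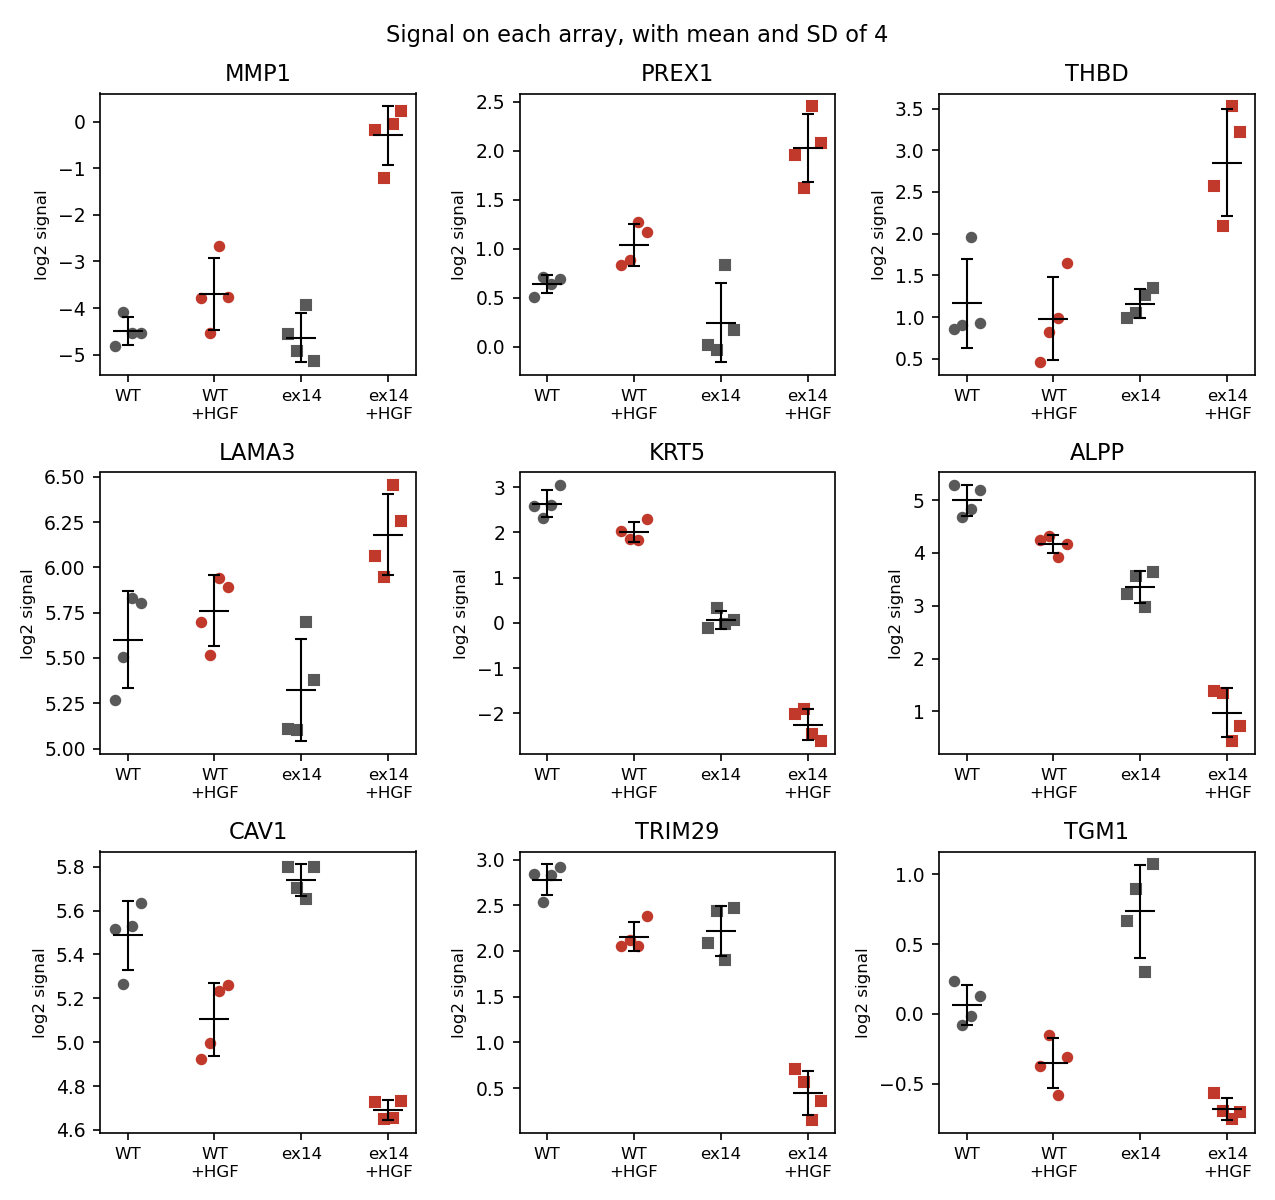
Log2 signal of 9 probes on each array (points, 4 per group; circles 16HBE-WT, squares 16HBE-ex14, red with HGF), with the mean and SD of the group; vertical axes differ between panels. For MMP1 the 16HBE-ex14+HGF arrays lie between -1.20 and 0.23 and all others at or below -2.67, and for KRT5 the genotypes are already apart without HGF.

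Several of the 15 lowest, among them KRT5, ALPP, CAV1, TRIM29 and TGM1, fell with HGF in 16HBE-ex14 cells and had a response of the same sign and smaller size in 16HBE-WT cells. KRT5, the type II keratin of basal cells (chr12:52908622-52908681), was 2.58, 2.31, 2.61 and 3.04 in 16HBE-WT and 2.04, 1.86, 1.83 and 2.29 in 16HBE-WT+HGF. In 16HBE-ex14 cells KRT5 was -0.12, 0.33, -0.03 and 0.07 without HGF and -2.02, -1.90, -2.46 and -2.61 with it. Treated and untreated arrays did not overlap in either genotype, and the 2 genotypes were apart without HGF. The difference was -1.68 ± 0.27 (95% interval -2.26 to -1.10; adjusted p = 0.154), from responses of -2.31 and -0.63. With normexp correction the KRT5 difference was -0.89.

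That sign belongs to the log2 scale. In linear signal, relative to the 75th percentile of the array, KRT5 lost more in 16HBE-WT cells, which began higher, and the difference of the linear changes was 1.44, opposite in sign. The same held for ALPP, placental alkaline phosphatase, with -1.54 ± 0.28 on the log2 scale and 5.99 in linear signal. ALPP was 5.28, 4.68, 4.83 and 5.19 in 16HBE-WT, 4.24, 4.32, 3.92 and 4.17 in 16HBE-WT+HGF, 3.23, 3.57, 2.98 and 3.63 in 16HBE-ex14 and 1.39, 1.35, 0.44 and 0.73 in 16HBE-ex14+HGF, so that each of the 4 groups was apart from the others. KRT17, a stress keratin, also changed sign between the scales, with -0.62 ± 0.29 and 0.25. No other named probe changed sign between the scales.

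CAV1, the coat protein of caveolae (chr7:116200742-116200801), was 5.52, 5.27, 5.53 and 5.63 in 16HBE-WT, 4.92, 5.00, 5.23 and 5.26 in 16HBE-WT+HGF, 5.80, 5.70, 5.65 and 5.80 in 16HBE-ex14 and 4.73, 4.65, 4.65 and 4.73 in 16HBE-ex14+HGF. CAV1 began higher on every 16HBE-ex14 array than on any 16HBE-WT array, and all treated 16HBE-ex14 arrays were below all others. Its 2 probes gave differences of -0.67 ± 0.12 and -0.68 ± 0.13 (adjusted p = 0.195 for the first).

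TRIM29, a protein of basal and squamous epithelia, was 2.84, 2.54, 2.83 and 2.92 in 16HBE-WT, 2.05, 2.12, 2.06 and 2.39 in 16HBE-WT+HGF, 2.08, 2.44, 1.90 and 2.47 in 16HBE-ex14 and 0.71, 0.56, 0.15 and 0.35 in 16HBE-ex14+HGF. The TRIM29 difference was -1.15 ± 0.22 (adjusted p = 0.201), and the 16HBE-ex14+HGF arrays were the lowest. TGM1, the transglutaminase that cross-links the cornified envelope, was 0.23, -0.08, -0.02 and 0.13 in 16HBE-WT, -0.37, -0.15, -0.58 and -0.31 in 16HBE-WT+HGF, 0.67, 0.90, 0.30 and 1.07 in 16HBE-ex14 and -0.57, -0.70, -0.75 and -0.71 in 16HBE-ex14+HGF. TGM1 began higher in 16HBE-ex14 cells and 3 of 4 16HBE-ex14+HGF arrays were below the 16HBE-WT+HGF range, with a difference of -0.995 ± 0.20 (adjusted p = 0.240).

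CLIC3, an intracellular chloride channel protein, had a difference of -1.64 ± 0.33 and UPK1B, a uroplakin of the urothelial surface, one of -0.61 ± 0.12. CLIC3 was larger in size in row 2 of each slide (-2.47 and -2.35) than in row 1 (-0.82 and -0.92). ELF3, an epithelial ETS factor, had -1.13 ± 0.27 (adjusted p = 0.286) with the same pattern, -1.68 and -1.76 in row 2 against -0.40 and -0.69 in row 1. So did TRIM29 (-1.46 and -1.58 against -0.59 and -0.98) and TGM1 (-1.53 and -1.34 against -0.63 and -0.49). Among probes with a positive difference, MMP3, ADAM19 and NRG1 were also larger in row 2. THBD went the other way, with 1.13 and 1.15 in row 2 against 1.98 and 3.24 in row 1. GPRIN2, which binds G protein subunits, was 2.05 to 2.13 in 16HBE-WT, 1.86 to 2.07 in 16HBE-WT+HGF, 1.79 to 2.28 in 16HBE-ex14 and 0.90 to 1.15 in 16HBE-ex14+HGF, and its difference was -0.90 ± 0.14 (adjusted p = 0.154). LOC93429 had -1.12 ± 0.22 and EFNA5, an ephrin, -0.59 ± 0.11. The antisense transcripts listed as CTB-178M22.2 (now TENM2-AS1) and LOC101927100 (now TICAM2-AS1) were lower as well, the first by -1.10 ± 0.19.

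In some of the 15 lowest the 16HBE-WT response was positive. PRDX2, a peroxiredoxin that reduces hydrogen peroxide, was -6.23, -6.33, -6.20 and -5.97 in 16HBE-WT and -4.78, -5.65, -4.04 and -3.83 in 16HBE-WT+HGF, of which 1 array was well above background. It lay between -1.29 and -0.73 on all 8 16HBE-ex14 arrays. The PRDX2 probe thus separated the genotypes on every array, and its difference of -1.72 ± 0.35 rested on 16HBE-WT signals at the background. RPL27A, a protein of the large ribosomal subunit measured here by a dim probe, had 0.76 in 16HBE-WT and -0.08 in 16HBE-ex14 cells and a difference of -0.84 ± 0.16. LRRIQ1, of unsettled function, was not well above background on any 16HBE-WT array. In 16HBE-ex14 cells it lay between -2.79 and -2.45 without and between -3.29 and -3.03 with HGF, a response of -0.56 that is under the fold limit, and its difference was -0.88 ± 0.15.

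Many of these sizes moved with the background correction. With normexp, 15 of the 29 highest and lowest probes had a difference smaller by over 1.5 times, all with the same sign. On the higher side these were MMP1 (1.62), LINC01635 (0.25), SH3TC2 (0.57), MYC (0.22), MAMDC2 (0.21), AKNA (0.16) and lnc-ZNF674-3 (0.15). On the lower side they were KRT5 (-0.89), LOC93429 (-0.66), CTB-178M22.2 (-0.38), EFNA5 (-0.35), LOC101927100 (-0.28), PRDX2 (-0.20), RPL27A (-0.18) and LRRIQ1 (-0.16). PREX1, THBD, SPNS2, HID1, LAMA3, DCBLD2, DPYSL2, GPRIN2, ALPP, CAV1, TRIM29, UPK1B, CLIC3 and TGM1 moved by less. MMP3 had 0.88 with normexp, and of the genes described below ITGA2 had 0.55, ITGA10 0.54, ITGB8 -0.42, ETV5 0.42, EHF 0.11 and OAS2 0.17.

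**Figure D3:**
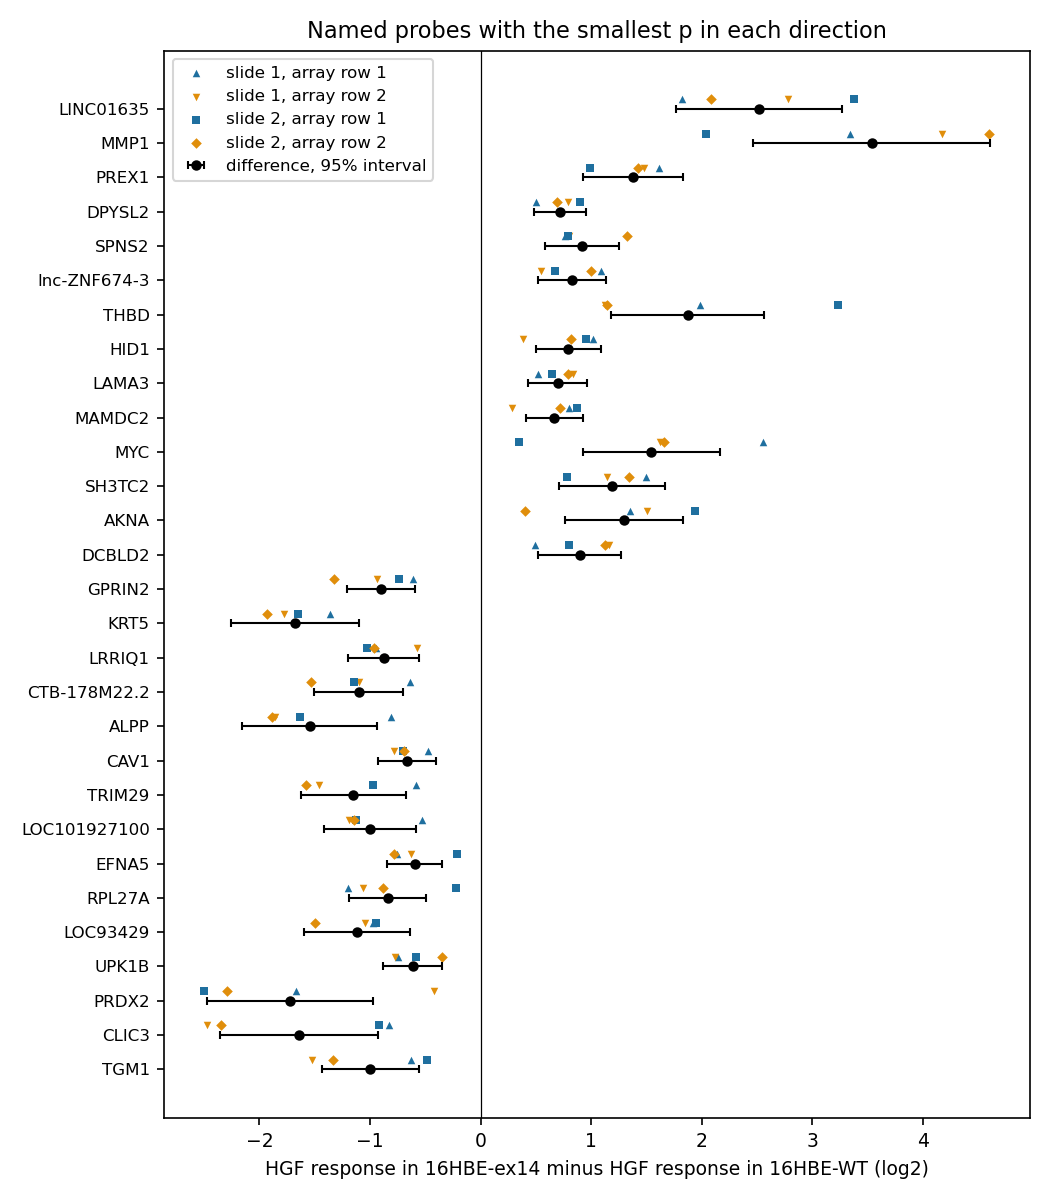
Difference of the HGF responses (horizontal axis, log2) for the named probes with the smallest p, 14 higher and 15 lower, with 95% intervals (black), and the same difference within each array row of 4 arrays (coloured, above each line). All 29 probes have 1 sign in all 4 array rows, which their choice by a small p over these arrays favours and which is no sign of stability, and the row values of CLIC3 and MMP1 spread more widely than those of CAV1.

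The 9 genes that the study names for HGF-activated MET ex14 were picked from these arrays, so their directions are not independent evidence. Of these, 6 had a higher and 2 a lower response at an unadjusted p below 0.05 with the fold limit, and none passed the adjusted test. ADAM19, a membrane protease of the ADAM family, differed by 1.16 ± 0.28, and its mean signal was 1.91 ± 0.37 (SD, n = 4) in unedited cells and 2.35 ± 0.19 with HGF, against 1.65 ± 0.51 and 3.24 ± 0.23 in the clone. Treated and untreated ADAM19 arrays overlapped in 16HBE-WT and not in 16HBE-ex14 cells. ADAM8 gave 1.05 ± 0.26 on the probe with the smallest p and 0.53 ± 0.17 on the brightest. ITGA2, the alpha subunit of a collagen-binding integrin, had 0.97 ± 0.27 and ITGA10 0.87 ± 0.37. MMP9, a gelatinase, had 0.74 ± 0.38 (adjusted p = 0.827), ITGB8 -0.69 ± 0.30 and ADAMTSL4 -0.63 ± 0.19. ADAMTSL4 had 0.25, -1.08, -0.57 and -1.12 by array row.

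Gene lists are described by their counts and medians, beside the background of all 25635 tested genes, of which 652 (2.54%) had a higher and 367 (1.43%) a lower response with an unadjusted p and the fold limit. Over all tested genes the median difference was 0.01. Among 21 tested feedback and target genes of the ERK route, 5 were higher and 0 lower, the median was 0.31, and 19 lay above 0. These were ETV4 (0.83 ± 0.24) and ETV5 (0.66 ± 0.19), ETS factors, SPRY4 (1.15 ± 0.38) and SPRY1 (0.50 ± 0.19), Sprouty inhibitors of receptor signalling, and DUSP6 (0.89 ± 0.32), the phosphatase of ERK. SPRY1 passed the fold limit on its second probe, at 0.89 ± 0.33. EGR1 (-0.15 ± 0.61) and IL11 (-0.34 ± 0.31) lay below 0. By array row the median of the ERK list was 0.42, 0.21, 0.75 and 0.08, all above 0. Of the 21 genes, 16 and 20 lay above 0 in row 1 of the slides, but 13 and 12 in row 2. SPRY4 had 1.585, 0.38, 2.52 and 0.11 by array row.

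Among 15 metalloproteinases and their inhibitors 3 were higher and the median was 0.35, and by row it ran from 0.21 to 0.45. The 3 were MMP1 and MMP3, which the study names from these arrays, and MMP25 on 1 probe. The brightest MMP25 probe had -0.18. MMP7, MMP10, MMP12, MMP13 and TIMP4 did not pass the filter on dim probes. TIMP1, an inhibitor of these proteases, rose with HGF in 16HBE-ex14 cells by 0.60 and had a difference of 0.40 ± 0.16. By array row the TIMP1 difference was 0.15, 1.01, -0.07 and 0.51. Among 10 genes of plasminogen activation 9 lay above 0 and 1 was higher, SERPINE2 (0.68 ± 0.31). By array row SERPINE2 had 0.15, 1.39, -0.27 and 1.45, so its sign changed with the row. PLAUR, the urokinase receptor, had 0.55 ± 0.14. Of 23 integrin subunits 3 counted as higher (ITGB3, ITGA2 and ITGA10) and 1 as lower (ITGB8). ITGB3, of the vitronectin receptor, was not well above background on any array but the 4 of 16HBE-ex14+HGF, so it passed the filter only through the group where it is high and its place in this count carries no weight. The fitted ITGB3 difference was 2.00 ± 0.48, and 0.20 with normexp, and both are a description only.

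Of 31 laminins, collagens and matrix glycoproteins 5 were higher and 1 lower, and the median was -0.03. Beside LAMA3 these were PXDN, the peroxidase that cross-links collagen IV (0.70 ± 0.15), and COL13A1 (1.22 ± 0.38). On 1 of several probes COL4A6 and COL5A1 were higher too, and their brightest probes had 0.07 and 0.04. COL13A1 had 0.50, 2.35, 0.03 and 2.00 by array row. FBLN1, a fibulin, was lower (-0.59 ± 0.17). Among 14 mesenchymal genes VIM, the intermediate filament of mesenchymal cells, had a difference of 1.30 ± 0.30 (adjusted p = 0.275). VIM lay between -1.85 and -1.32 in unedited cells and between -0.90 and -0.39 with HGF, against 0.42 to 1.51 in the clone and a mean of 3.30 ± 0.27 (SD, n = 4) there with HGF, with no overlap between any pair of groups. The median of the mesenchymal list was -0.03, TWIST2, a mesenchymal factor, had 0.57 ± 0.15, and TAGLN, an actin-binding protein, was lower on 1 probe (-0.61) and had -0.44 ± 0.26 on its brightest.

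Other lists lay near the background or below 0. All 22 mitotic genes lay below 0 with a median of -0.26, although none passed the unadjusted p with the fold limit, and the extreme values were -0.43 ± 0.12 (BUB1B, of the spindle checkpoint) and -0.03 (CDC20). KIF23, a kinesin of cytokinesis, had -0.41 ± 0.12. The median response of the mitotic list was -0.27 in 16HBE-ex14 and 0.01 in 16HBE-WT cells. By array row, however, the median difference of the mitotic list was -0.01 and -0.05 in row 1 of the slides and -0.45 and -0.42 in row 2, and in row 1 alone 12 of 22 lay below 0. The NF-kappa-B list had 1 of 16 lower, BCL3 (-0.63 ± 0.23), a median of -0.26 and row medians of -0.05, -0.32, -0.02 and -0.44. BCL3 itself had 0.01, -1.14, 0.02 and -1.41 by array row. Of 24 genes of airway and epithelial differentiation 3 were lower and 1 higher, EHF (0.69 ± 0.25), and the median was -0.13. The lower ones were ELF3, FOXI1, the ionocyte factor (-1.53 ± 0.64), and CFTR, the chloride channel, on 1 probe (-0.70). The brightest CFTR probe had 0.00 ± 0.09. FOXI1 had 0.28, -3.15, -0.88 and -2.37 by array row. The bronchial epithelial markers had a median of -0.10 and 1 of 12 lower, KRT5.

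**Figure D4:**
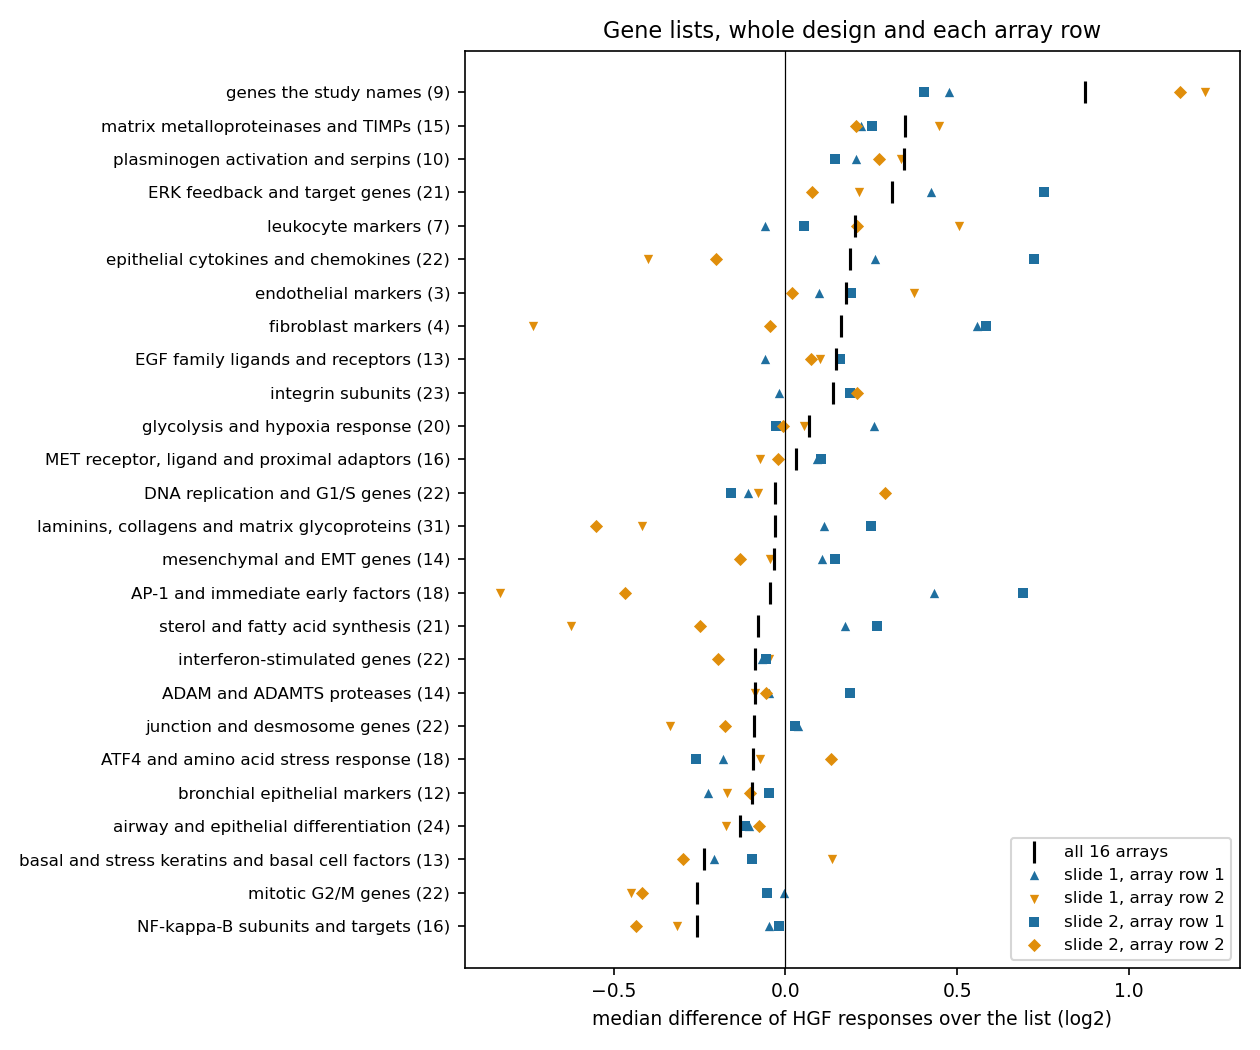
Median difference of the HGF responses (horizontal axis, log2) of each gene list, with the number of tested genes in brackets, over all 16 arrays (black bar) and within each array row of 4 arrays (blue, row 1; orange, row 2; 1 shape per slide and row). The blue and orange points of the AP-1 list lie on opposite sides of 0, at 0.43 and 0.69 against -0.83 and -0.47.

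The immediate early genes varied with the array row. The median difference of 18 AP-1 and immediate early factors was -0.04 over all arrays, but 0.43 and 0.69 in row 1 of slides 1 and 2 and -0.83 and -0.47 in row 2. In row 1 of each slide 16 of the 18 lay above 0, and in row 2 it was 4 on slide 1 and 3 on slide 2. FOSB, a FOS family factor chosen here after its values were seen, was 0.00, -0.97, 1.52 and 0.35 in 16HBE-WT and -0.12, 0.45, -0.74 and 1.30 in 16HBE-WT+HGF, in the order row 1 and 2 of slide 1 and row 1 and 2 of slide 2. In 16HBE-ex14 cells it was -0.55, 2.07, 0.40 and 0.95 without and 2.77, 0.02, 0.14 and -0.19 with HGF. All groups of FOSB overlapped, its row differences were 3.44, -3.46, 2.00 and -2.10, and the difference of -0.03 ± 1.07 allows changes of either sign. What the rows of arrays stand for is not stated, and their part in other results was not tested. Sterol synthesis genes (row medians 0.17, -0.62, 0.27 and -0.25) and the laminin, collagen and matrix list (0.11, -0.42, 0.25 and -0.55) also changed sign with the row. So did the cytokine list (0.26, -0.40, 0.72 and -0.20), the 4 tested fibroblast markers (0.56, -0.74, 0.58 and -0.05) and, with smaller medians, the junction, mesenchymal and MET lists. The medians of the metalloproteinase, ERK and plasminogen lists were above 0 in every row. This was not particular to them, since it also held for the genes the study names and for the 3 tested endothelial markers (0.10, 0.37, 0.19 and 0.02).

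The MET receptor itself had a difference of 0.03 ± 0.10 (95% interval -0.17 to 0.24; adjusted p = 0.990). The position of the MET probe against exon 14 was not examined, so its level is no check of the edit. None of the 16 tested genes of the MET receptor, its ligand processing and its proximal adaptors was higher or lower. SH3KBP1, a partner of CBL in receptor endocytosis, had the smallest p among them (0.43 ± 0.13). Its other probes gave 0.34 ± 0.11 and -0.02 ± 0.14. The HGF gene did not pass the filter. Among EGF family ligands NRG1, neuregulin, had a difference of 0.86 ± 0.21, with its other probes at 0.80 and 0.79. Of the cytokines CSF3, the granulocyte growth factor, counted as higher (1.60 ± 0.51 and 1.17 ± 0.43 on 2 probes). The first CSF3 probe was well above background on 3 arrays of 16HBE-WT, 2 of 16HBE-WT+HGF, 0 of 16HBE-ex14 and 2 of 16HBE-ex14+HGF cells, its difference was 0.11 with normexp, and no rise in 16HBE-ex14 cells could be bounded. Of the junction genes PKP1, a desmosomal plakophilin, was higher (0.59 ± 0.16). KRT6B, a stress keratin, was higher (1.08 ± 0.46) in the keratin list whose KRT5 was lower. By array row the KRT6B difference was 0.82, 2.66, -0.31 and 1.13. EGLN3, an oxygen sensor, was the 1 gene of the hypoxia list that counted as lower (-0.98 ± 0.31). Its probe was not well above background on any 16HBE-ex14+HGF array, and the bound on its fall there was 2.28-fold, for this probe only. The EGLN3 difference with normexp was -0.086. A second EGLN3 probe gave 0.72 ± 0.68 and had a response of 0.93 in 16HBE-ex14 cells. No gene of the lists for sterol synthesis, DNA replication, the ATF4 response, or fibroblast, leukocyte and endothelial markers was higher or lower. The markers of these other cell types had median differences of 0.16, 0.20 and 0.18, of which the fibroblast median changed sign with the array row. ADAMTS10 was higher (0.99 ± 0.33). OAS2 and MMP25 were higher on 1 probe each, at 0.87 and 0.76, and had -0.29 and -0.18 on their brightest probes.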

How the data were processed

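RNA was hybridised to one-colour Agilent expression arrays. Per the file headers, the deposited values are spot intensities processed by the authors with Agilent Feature Extraction 10.7.3.1, which subtracts background, and probe positions are on hg19. From these, log2 intensity minus the 75th percentile of each array was computed, control spots and outlier spots were left out, and probes well above background on at least 4 arrays were kept. The difference of the HGF responses was fitted over all 16 arrays in limma 3.58.1 (R 4.3.3) with the slide as covariate, with Benjamini-Hochberg adjustment over all tested probes, an adjusted p limit of 0.05 and a fold limit of 1.5. Replicate numbers follow slide and array row. The methods describe replicate cultures of separate weeks, so p-values measure the spread between the arrays of a group, and how much of it is technical is not known. They do not measure the spread between edited clones, since 1 clone was used. The steps were tested on simulated data.

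The members and lists were chosen with earlier results of these data known. Named genes were the 15 probes in each direction with the smallest p beyond the fold limit (1 probe per gene), the 2 smallest p of each list, MET and the 9 genes the study names. Of these and of the lists, 2 genes are not reported here, which leaves 14 named higher and 15 lower probes, and they were left out of the list counts and medians. Other genes are named where a list's count turns on them. In list counts any probe of a gene may pass, and in medians the brightest counts. Intervals are 95% intervals. Alternatives were other scalings, background correction (normexp, offset 50), filters, priors, array weights, each slide, the array row as replicate block and leaving out each array. Fits of each array row and without moderation were added after seeing the data. Promoters are from RefSeq (GRCh38.p14). Precision is limited by the number of arrays.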

Additional observations from a re-analysis of the deposited data

Results flagged for a closer look

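Of 324 groups of 4 arrays examined, 10 (3.09%) had 1 array far from the other 3, and chance sets apart about 1 in 20 such groups. In 16HBE-WT arrays these were THBD at 1.97 (nearest array 0.93), RPL27A at -3.96 (nearest -4.42), MMP9 at 1.64 (nearest 2.60) and ADAMTSL4 at -0.0539 (nearest -0.41). In 16HBE-ex14 arrays they were DPYSL2 at -1.01 (nearest -0.79), SREBF2 at 2.30 (nearest 2.52) and ITGB3 at -6.02 (nearest -4.76). With HGF, LSS stood at -2.35 in 16HBE-WT (nearest -1.83), FAP at -3.83 in 16HBE-ex14, below the other 3, and the brightest ADAM8 probe at 7.07 in 16HBE-WT (nearest 6.90).

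LRRIQ1 had higher signals with HGF in 16HBE-WT and lower ones in 16HBE-ex14 cells with no overlap within either genotype. Its difference was -0.877 (limma adjusted p = 0.160), and it was not well above background in 16HBE-WT cells.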

How the results depend on the processing

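Besides 0 in the main setting, the number of probes called was 45 (33 higher, 12 lower) with normexp, 28 (20 higher, 8 lower) with the trended robust prior, 5 (5 higher, 0 lower) with array weights and 0 to 21 with 1 array left out (0 to 16 higher, 0 to 5 lower). Of the last, 21 came without 16HBE-ex14 replicate 3 and 1, PRDX2, without 16HBE-WT+HGF replicate 2. All other settings called 0. With the array row as replicate block 0 were called and the smallest adjusted p was 0.261. Numbers were shared only by position. Deviations of arrays in 1 row had mean correlations of 0.177 to 0.227, with single pairs from 0.0283 to 0.323, and since not every pair was over 0.1 the rows were not taken to pair the arrays.

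Unadjusted counts of higher and lower probes were 121 and 55 with normexp, 1178 and 1094 without the filter on dim probes, 277 and 191 with all arrays above background, 892 and 597 with array weights, 1303 and 957 without the fold limit, 90 and 53 with limma's treat, 728 and 791 in array row 1 and 2283 and 1881 in array row 2. Leaving out 1 array gave 577 to 949 higher and 343 to 602 lower.

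Signs turned for KRT5 (1.44), ALPP (5.99) and KRT17 (0.249) in linear signal. The MET difference was -0.012 scaled to the array median, -0.040 scaled to E1A, -0.080 in array row 2 and -0.0055 to 0.0587 with 1 array left out. FAP had -0.090 on slide 1, -0.023 with normexp and -0.283 in array row 2, where VWF had -0.111, and FCER1G had -0.126 and SREBF2 0.066 in array row 1. The causes were not tested. Of the other values of named genes, 2839 kept direction and side of the threshold and 48 newly passed it. With normexp, 35 of 81 named probes had a difference smaller by over 1.5 times or of opposite sign, and 1 (MET) a larger one.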
